A study of Mus musculus with 4 samples.

Results

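EN1 was the most numerous of 13 excitatory neuron subtypes that the authors annotated among single nuclei of the mouse superior colliculus. Its members were all nuclei given the subtype EN1 in the deposited annotation, 1202 of 4093 excitatory nuclei and of 9724 nuclei in all. The study sequenced nuclear RNA of C57BL/6J mice, with no other genotype or treatment, at embryonic day 19 (E19) and postnatal days 4, 8 and 21 (P4, P8 and P21), to describe the neurons of the developing colliculus. Each stage was 1 library made from the pooled tissue of several animals, so no comparison between stages had a replicate. The protocol text writes E10 in brackets beside embryonic day 19, and E19 is used here as in the sample titles. From E19 to P21 the libraries held 514, 419, 131 and 138 EN1 nuclei, and 4 values in a row below are in the order E19, P4, P8, P21. The label EN1 stands for the first excitatory subtype and not for the gene En1 (engrailed 1), which gave 6.73 counts per 1000000 UMIs (CPM) in EN1 at E19, 0.913 at P4 and none in the later libraries.

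The superior colliculus is the midbrain roof structure that receives retinal input in its superficial layers and other sensory and motor input in its deeper layers. Its excitatory neurons release glutamate, which they load into synaptic vesicles with the transporter encoded by Slc17a6, whereas inhibitory neurons make GABA with the enzymes encoded by Gad1 and Gad2. Most neurons of the colliculus are postmitotic by birth, and in the weeks that follow they extend axons, form synapses and replace embryonic cytoskeletal and channel genes with mature ones.

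The 4 libraries gave 19277512, 23579145, 27436259 and 31325079 unique molecular identifiers (UMIs) from E19 to P21, and 31053 genes were listed. Levels below are UMIs summed over the nuclei of a group and divided by the summed total, in CPM. Intervals are at the 95% level and cover counting error only, since spread between animals could not be measured. Log2 ratios were taken after adding 5 CPM to either side, so that ratios of low genes are understated. The same barcode occurred in more than 1 library for 18 nuclei, none of them EN1. Lower nuclear RNA of a gene and fewer nuclei using it cannot be told apart in a summed level.

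EN1 made up a smaller part of the excitatory nuclei in the 2 later libraries than in the 2 earlier ones. Its share was 38.4% (interval 35.8 to 41.1), 34.7% (32.1 to 37.5), 15.1% (12.8 to 17.7) and 20.2% (17.3 to 23.4). The intervals of the earlier and the later libraries did not overlap, but they cover counting error within a library and not spread between animals. Among all nuclei, EN1 was 19.9% at E19 and 6.14% at P21. EN1 nuclei were deeper than the other excitatory nuclei, with medians of 9351, 12596, 16346 and 23596 UMIs against 7504.5, 11307, 13727 and 18861.5. EN1 ranked 3rd or 4th in median depth among the subtypes with at least 20 nuclei of each library. The part of tissue dissection or of nuclear recovery in the difference in shares was not tested. The other excitatory nuclei numbered 824, 787, 736 and 544 from E19 to P21, and their mixture moved as well: EN2 supplied 287 of them at E19 and 36 at P21, and EN7 supplied 191 at P4 and 1 at P21.

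**Figure D1:**
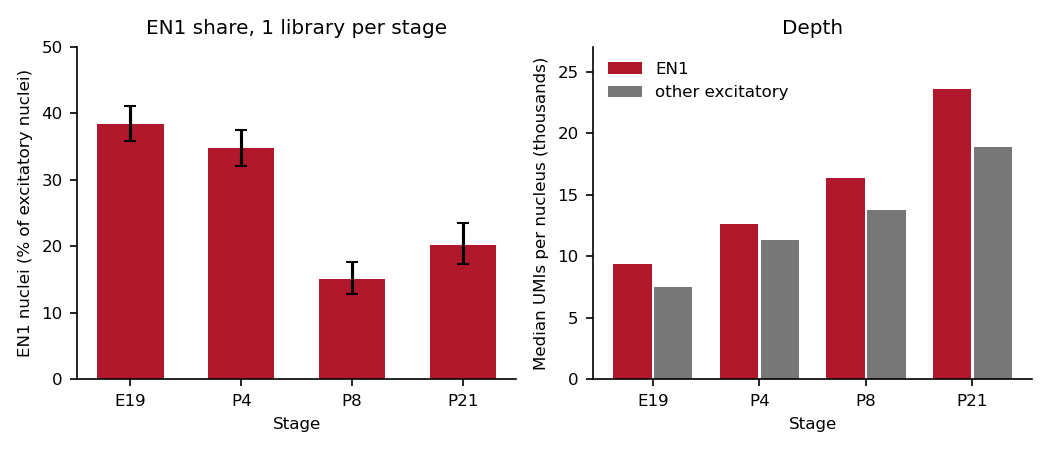
Left, EN1 nuclei as a percent of excitatory nuclei at each stage, with bars for 1 library each and whiskers for the 95% Clopper-Pearson interval; right, median UMIs per nucleus in EN1 (red) and in the other excitatory subtypes (grey). The share stands at 38.4% at E19 and at 15.1% at P8, and EN1 is the deeper group in each library.

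The marker of the label was present. Slc17a6 was at 274, 233, 174 and 174 CPM in EN1. In the other excitatory subtypes it was at 295, 246, 183 and 176, and in inhibitory nuclei at 46.3, 38.8, 19.8 and 8.32. EN1 thus lay close to the other excitatory subtypes and above inhibitory nuclei in each library. After each nucleus was thinned to 5000 UMIs, 73.6% of EN1 nuclei had an Slc17a6 UMI at E19 and 55.8% at P21, against 19.0% and 4.0% of inhibitory nuclei. A UMI of Gad1 or Gad2 was found in 10.0% to 19.4% of thinned EN1 nuclei, in 10.5% to 16.2% of the other excitatory nuclei and in 92.1% to 95.3% of inhibitory nuclei. At P4 the share was 19.4% (interval 15.7 to 23.5) in EN1 and 12.9% (10.6 to 15.5) in the other excitatory nuclei. The intervals of these 2 groups overlapped at E19, P8 and P21.

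Most marker lists of other cell types were low in EN1, and a choroid plexus gene at P4 was an exception. The summed level of 7 astrocyte markers in EN1 was 102 to 162 CPM, against 3858 to 11222 in astrocytes, and that of 5 microglial markers was at most 14.7 CPM, against 2315 to 2917 in microglia. The summed level of 8 oligodendrocyte lineage markers was 64.1, 66.3 and 70.2 CPM in the first 3 libraries and 195 CPM at P21, where the other excitatory subtypes had 281. Each of these 3 lists was no more than a few percent of its level in its own class, and its part in the EN1 values was not tested. The list of 4 epithelial markers summed to 86.4 CPM in EN1 at P4, against 110.9 in the 17 nuclei of the epithelial class of that library, and to at most 4.55 CPM in the other 3 libraries. That class itself had at most 7.28 CPM of these markers in the other libraries, so it is a weak reference for them. Nearly all of it was Ttr, the transthyretin gene of choroid plexus, at 79.7 CPM with a UMI in 59.2% of EN1 nuclei at P4, and at 68.6 and 95.7 CPM in the other excitatory subtypes and in inhibitory nuclei. Ttr had no UMI in EN1 at E19 and P8 and 1 UMI at P21, and its source at P4 was not tested. A list of 6 genes known from thalamic neurons summed to 1032, 1088.5, 917 and 433 CPM in EN1. In the other excitatory subtypes the list summed to 1552, 1381, 1033 and 578 CPM. Most of the EN1 sum was Tcf7l2 and Lef1, at 723 and 277 CPM at E19 and at 219 and 197 at P21. Gbx2, Prkcd and Slc17a7 were at most 7.72 CPM in EN1 in each library, and Calb2 was at 12.9 to 30.5.

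The subtype was mostly, but not wholly, 1 cluster of the authors' clustering. Cluster 0 held 1080 of the 1202 EN1 nuclei (89.9%), and with them, among others, 317 EN3, 78 EN2 and 15 inhibitory IN1 nuclei. The remaining EN1 nuclei were spread over 8 clusters with at most 28 in any of them. Of these, 25 lay in cluster 2, where 607 of 635 nuclei were inhibitory, and 1 in cluster 5, where the other 447 were inhibitory. The deposited table also gave each nucleus the label of its best match in 2 reference data sets. In the first, EN1 matched the excitatory class ESC1 in 77.6%, 68.0%, 48.1% and 48.6% of nuclei. The other excitatory subtypes had 71.7%, 68.2%, 47.6% and 40.3% in ESC1, so this label did not set EN1 apart. In the second, reference cluster 0 took 60.5%, 65.4%, 66.4% and 55.1% of EN1 nuclei and 10.5%, 11.1%, 4.48% and 3.31% of the others. These labels were computed from the same expression values as the subtypes and are not independent of them.

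The profile of EN1 had its highest correlations with those of EN3, EN2 and EN11. Across the genes with a mean of at least 50 CPM over the subtypes of a library (3879 at E19), the Pearson correlation of log2 levels between EN1 and EN3 averaged 0.959 over 4 libraries, with a range of 0.957 to 0.962. For EN2 it averaged 0.955 (0.940 to 0.971), and for EN11, which had 20 or more nuclei in 2 libraries only, it was 0.949 and 0.951. EN2 could not be placed among these 3 subtypes, since its range covers the means of EN3 and EN11. EN3 was above EN11 in the 2 libraries where EN11 was compared. The lowest mean was that of EN6, at 0.821 (0.768 to 0.848), followed by EN5 at 0.841. These are correlations across genes, which are not independent, and subtypes with fewer nuclei have noisier profiles. With every subtype thinned to the smallest UMI total of its library, EN3 stayed first at 0.923 and EN6 last at 0.750.

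EN1 differed from the other excitatory subtypes in few genes. At equal UMI totals and among genes with a mean of at least 100 CPM, 23, 28, 47 and 45 genes lay 2-fold above or below the joined remaining subtypes. That was the lowest number of any subtype in the first 3 libraries, and at P21 only EN2, with 43, had fewer. EN6 had 288 such genes at E19 and EN12 had 237. Because EN1 was the largest subtype, it also formed much of the group with which every other subtype was compared, and the part of its size in the ranking was not tested.

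**Figure D2:**
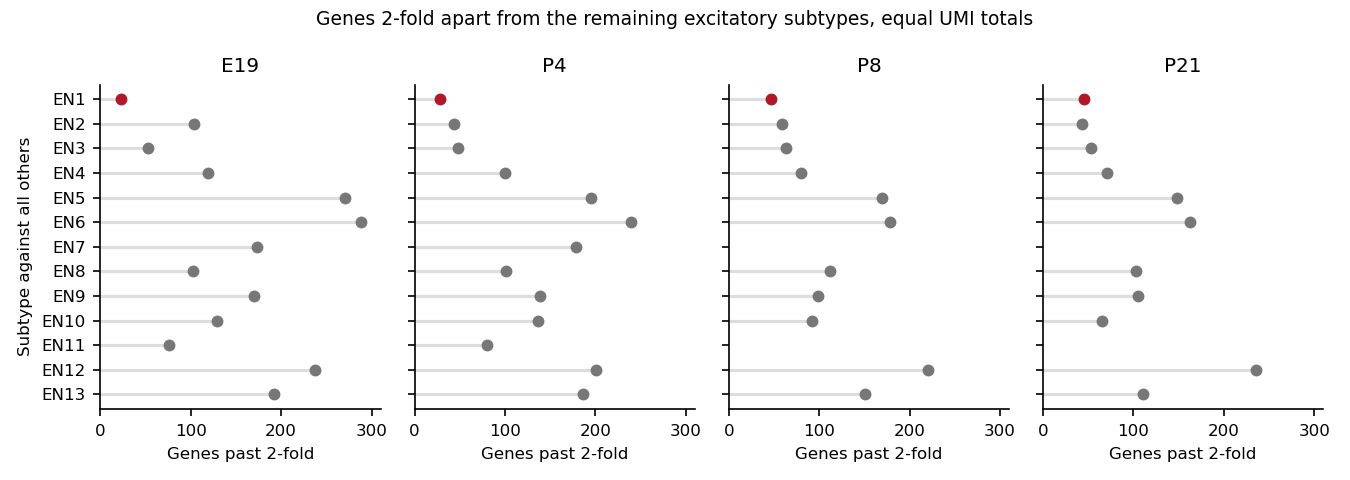
Number of genes (horizontal axis) 2-fold above or below the joined remaining excitatory subtypes, for each subtype with at least 20 nuclei (vertical axis) in the 4 libraries, with UMIs thinned to the smallest subtype's total. EN1 (red) has 23, 28, 47 and 45 genes from E19 to P21, the lowest number at E19, P4 and P8.

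Without thinning, and at a mean of at least 50 CPM, 9 genes were 2-fold higher in EN1 at E19 (0.231% of 3897 tested) and 21 were 2-fold lower (0.539%). At P4 there were 9 higher (0.235%) and 26 lower (0.68%), at P8 17 higher (0.471%) and 43 lower (1.19%), and at P21 13 higher (0.351%) and 41 lower (1.11%). Genes 2-fold lower in EN1 outnumbered those 2-fold higher in each library. Of 3072 genes that could be compared in all 4 libraries, 2 were 2-fold higher in every one (0.0651%), Npas3 and Gpc5, and 5 were 2-fold lower in every one (0.163%), Rorb, Mgll, Lhfp, Col25a1 and Bcl11b. With every subtype weighted alike in place of joined, 18 genes were past 2-fold in all 4 libraries, 6 of them among these 7, Gpc5 not being one. Over smaller differences the balance was the other way, with 679 genes on the higher side in all 4 libraries and 427 on the lower side. The subtypes were clustered on these same nuclei, so the levels that follow describe EN1 and are no test of it.

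The genes that led EN1 on the higher side encode a transcription factor, heparan sulphate and glycosaminoglycan proteins, cadherins and a serotonin receptor. Npas3, a basic helix-loop-helix PAS transcription factor of the developing brain, was at 1197, 1159, 1189 and 1047 CPM in EN1. The other excitatory subtypes were at 384, 389, 334 and 452 CPM, and the fold ran from 2.32 at P21 (interval 2.22 to 2.42) to 3.56 at P8 (3.39 to 3.74). EN1 exceeded every other subtype in the first 3 libraries, and at P21 EN8, at 1331 CPM, stood above it. Inhibitory nuclei also carried Npas3, at 860, 848, 650 and 530 CPM.

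Gpc5, a glypican that carries heparan sulphate chains on the cell surface, was at 1058, 1389, 2009 and 1812 CPM in EN1. The other subtypes together had 333, 663, 817 and 866 CPM, and the fold was largest at E19, at 3.18 (3.03 to 3.35). Single subtypes passed EN1, EN8 at P4 with 1576 CPM and EN9 at P21 with 2488 CPM. Xylt1, the xylosyltransferase that starts glycosaminoglycan chains, was at 283, 289, 358 and 225 CPM and was the only one of the 12 leading genes to exceed every compared subtype in all 4 libraries. Its fold over the others together ran from 1.90 to 2.33.

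Cdh18, a classical cadherin of neuronal adhesion, was at 1091, 1788, 2028 and 2857 CPM in EN1, while the other subtypes had 641, 523, 443 and 961. Its fold went from 1.70 (1.64 to 1.77) at E19 to 4.58 (4.40 to 4.77) at P8. EN2 was the nearest subtype, with 1174 CPM at E19, above EN1 there, and 2238 at P21. Cdh4, R-cadherin, was at 886, 870, 1411 and 588 CPM, with EN9 higher in all 4 libraries. Pcdh17, a protocadherin, was at 358, 273, 218 and 152 CPM, which was 1.66 to 2.27 times the level in the others. EN11 had more of it than EN1 at E19 and P4, with 481 and 360 CPM.

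Htr2c, the serotonin 2C receptor, was at 110, 227, 221 and 539 CPM in EN1. The other subtypes went from 42.6 to 306 CPM over the same libraries, and the fold was 2.59 at E19 and 1.76 at P21. From P4 on EN8 held more of it than EN1, with 1074 CPM at P21. EN2 also stood above EN1 at P8 and P21, with 233 and 600 CPM, and EN3 had 502 CPM at P21. Rasgrf2, an exchange factor that activates Ras, was at 198, 239, 310 and 242 CPM, with a fold between 1.92 and 2.22. Vwc2l, a secreted protein with a von Willebrand C domain, was at 264, 239, 335 and 235 CPM and reached 3.41-fold at P8. The fold of Dpyd, the first enzyme of pyrimidine breakdown, was 1.59 to 2.30, and that of Atp2b4, a calcium pump of the plasma membrane, 1.5 to 2.0. Single subtypes passed EN1 for these genes too. At P4, P8 and P21 EN5 had 216, 245 and 234 CPM of Dpyd, against at most 174 in EN1. In the same libraries EN4 had 162, 193 and 119 CPM of Atp2b4, against at most 105. EN9 had 201 and 246 CPM of Rasgrf2 at E19 and P4, and EN3 had 248 CPM of Vwc2l at P21.

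Bnc2, which encodes the zinc finger protein basonuclin 2, was present in EN1, EN6, EN8 and EN9 and low in the 3 subtypes with the highest correlations with EN1. EN1 had 469, 323, 529 and 313 CPM. EN2 had between 8.10 and 20.7 CPM, EN3 between 14.4 and 29.8 and EN11 21.8 and 29.2 in the 2 libraries where it was compared, and inhibitory nuclei had 6.46 to 31.9. EN6, the least similar subtype, had 2022, 1371, 1174 and 795 CPM, and EN9 and EN8 held from 351 to 1152. At 5000 UMIs per nucleus, a Bnc2 UMI was found in 45.1% (interval 40.6 to 49.7), 35.1% (30.5 to 39.9), 65.4% (56.5 to 73.5) and 47.1% (38.6 to 55.8) of EN1 nuclei. Before thinning the shares were 49.0%, 40.8%, 73.3% and 57.2%. Thinned inhibitory nuclei, a group with little Bnc2, had 3.9% to 7.6%. A nucleus with no UMI at this depth may still have used the gene, so these shares are of nuclei with a UMI and not of nuclei expressing it. Thinning left out 33, 6, 1 and 0 EN1 nuclei from E19 to P21.

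**Figure D3:**
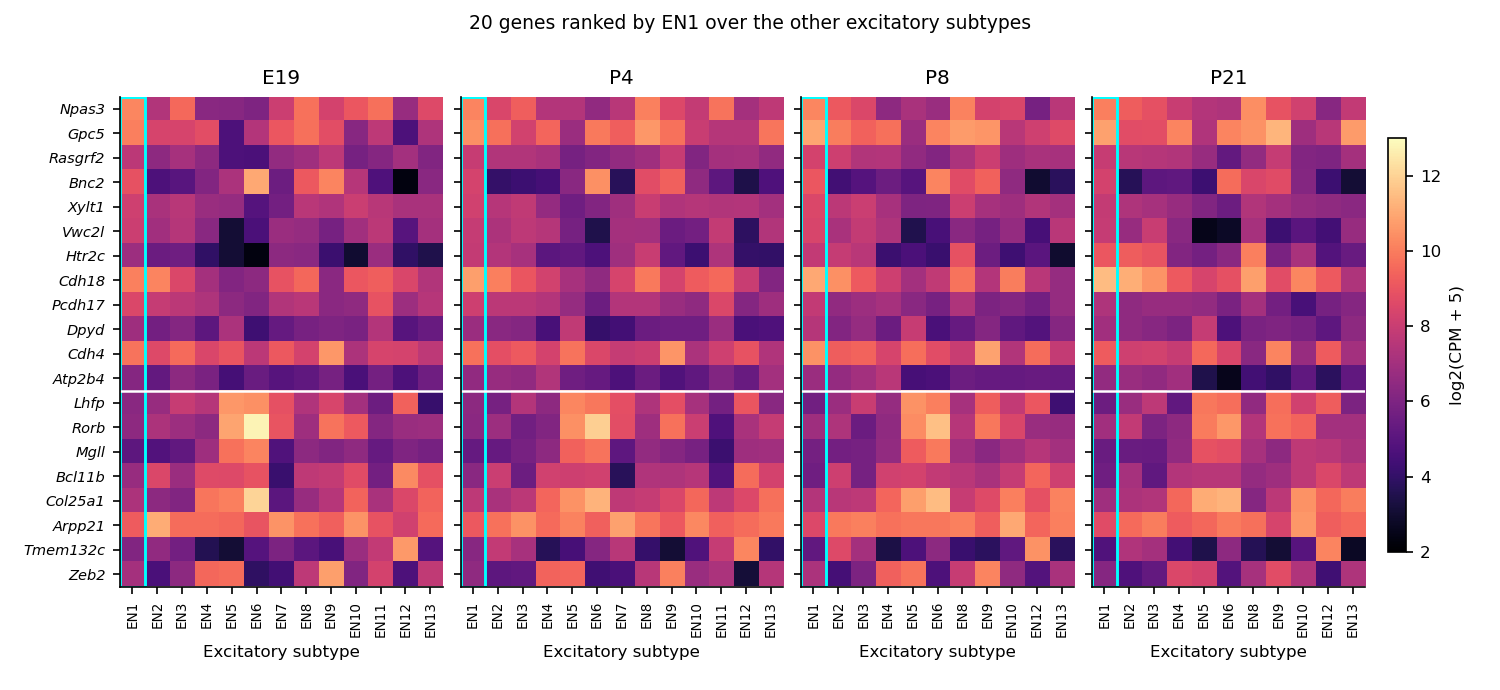
Levels as log2(CPM + 5), in colour, of the 12 genes ranked highest (above the white line) and the 8 ranked lowest (below it) in EN1 over the other excitatory subtypes, by subtype (columns, at least 20 nuclei) and library (panels); EN1 is outlined. Npas3 exceeds every other subtype at E19, P4 and P8, Bnc2 is shared with EN6, EN8 and EN9 but not EN2 or EN3, and Rorb is highest in EN6.

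On the lower side, the ranked genes were highest in EN5, EN6, EN9 or EN12, apart from Arpp21, and EN1 was the lowest subtype for none of them in all 4 libraries. Rorb, an orphan nuclear receptor, was at 82.1, 77.6, 112 and 118 CPM in EN1, against 472, 417, 665 and 425 in the others together. The others were 5.75, 5.37, 5.96 and 3.59 times higher. EN6 alone had 6848 CPM at E19 and 1560 at P21, and EN5 had 1919 and 989. EN1 was not the lowest subtype, since 2 to 4 subtypes in each library had less Rorb.

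Lhfp, a tetraspan membrane protein, was at 74.0, 78.6, 45.8 and 41.3 CPM in EN1 and at 271, 322, 480 and 382 in the others, a fold of 3.66 at E19 and of 10.5 at P8 in favour of the others. Mgll, the lipase that degrades the endocannabinoid 2-arachidonoylglycerol, was at 29.9 to 48.4 CPM in EN1 and at 111 to 250 in the others. Both were highest in EN5 or EN6 in all 4 libraries. EN2 and EN3 had Mgll close to the level of EN1, at 23.1 to 46.8 and 32.6 to 52.0 CPM. Col25a1, a transmembrane collagen, was at 151, 199, 170 and 117 CPM in EN1 and at 384, 424, 887 and 800 in the others. The difference was 2.54-fold at E19 and 6.82-fold at P21. At E19 EN2 and EN3 had less Col25a1 than EN1, at 79.6 and 64.2 CPM.

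Bcl11b, a zinc finger transcription factor of projection neurons, was at 99.9, 75.8, 44.0 and 44.9 CPM in EN1 and at 297, 166, 256 and 150 in the others, with EN12 highest in each library. EN3 had 106, 42.0, 50.3 and 31.3 CPM of Bcl11b. Tmem132c was also highest in EN12 in each library, at 1163 to 1620 CPM, against 22 to 73.3 in EN1. EN4, EN5, EN8, EN9 and EN13 had less Tmem132c than EN1 in each library, with 1.74 to 16.2 CPM at P21. EN2 had more than EN1 in each library. Zeb2, a zinc finger E-box binding factor, was at 126, 84.6, 146 and 69.5 CPM in EN1, against 1746, 1082, 1158 and 421 in EN9. From 4 to 6 subtypes had less Zeb2 than EN1 in each library, EN2 and EN3 among them. The phosphoprotein gene Arpp21 differed in kind, since it was spread over the other subtypes. EN1 had 579, 545, 368 and 402 CPM of it, below all compared subtypes at P4 and P8 and below all but 1 at P21.

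Positions of genes were read from GENCODE M21 on GRCm38 (mm10). Npas3 lies on chromosome 12 from 53248677 to 54072175, Gpc5 on chromosome 14 from 115092215 to 116525179, Bnc2 on chromosome 4 from 84275095 to 84675275 and Rorb on chromosome 19 from 18930605 to 19111196. UMIs were counted over whole genes, introns included. Of the 20 ranked genes, 4 overlapped no other annotated gene and none overlapped another protein-coding gene. The remaining overlaps were with non-coding or unclassified genes, and reads could be shared with those on the same strand. For Npas3, Gpc5, Cdh4 and Pcdh17 the overlapping genes were all on the opposite strand.

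Gene lists were read beside all 3072 genes compared in the 4 libraries, of which 22.1% were higher and 13.9% lower in EN1 in every library. At 2-fold or more in any library, 0.814% were higher and 1.73% lower. Among 29 midbrain transcription factors that passed the filter in all 4 libraries, of 97 listed, 11 were lower in EN1 than in the other excitatory subtypes in every library and 2 were higher. The median of their mean log2 ratio was -0.20, against 0.02 over all 3072 genes, and 2 of the 29, Rorb and Bcl11b, were 2-fold lower in every library, beside 0.163% of all genes. Rora, a receptor related to Rorb, was at 1227, 1078, 1454 and 2535 CPM in EN1 and at 2507, 2242, 3397 and 3520 in the others. Meis2, a homeodomain factor, was at 488, 212, 270 and 113 CPM against 1009, 411, 447 and 318.

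Of 49 synapse organisers that passed, none was 2-fold apart in any library, and 17 were higher and 5 lower in EN1 in all 4, with a median of 0.07. So few genes of any kind were 2-fold apart that this absence is near the share over all genes. Ptprd, a receptor phosphatase that organises synapses, was one of the lower ones, at 4143, 4228, 4063 and 4025 CPM against 6862, 6894, 7139 and 7475. None of the 25 glutamate receptor genes and none of the 14 GABA-A, glycine receptor and chloride transporter genes that passed was 2-fold apart in any library, which is likewise near that share. Gria1, an AMPA receptor subunit, was at 939 CPM against 508 at P21. Of 19 cadherins, 9 were higher and 5 lower in EN1 in all 4 libraries, both above the shares over all genes, and the median over the list was 0.04. In at least 1 library 3 of the 19 were 2-fold higher and 2 were 2-fold lower.

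Among 45 axon guidance genes, 14 were higher and 13 lower in every library, beside 22.1% and 13.9% of all genes. Slit2, a ligand of Robo receptors, was at 389, 389, 527 and 365 CPM in EN1 against 283, 211, 252 and 198. Ntng2, netrin-G2, was at 132, 168, 235 and 61.6 CPM against 319, 240, 351 and 166. Of 14 growth factor signalling genes, 4 were higher and 2 lower in every library, near the shares over all genes. Erbb4, the neuregulin receptor kinase, was at 1628, 1610, 1575 and 1466 CPM in EN1 against 771, 654, 1043 and 1093. The GDNF family receptor gene Gfra1 was at 139, 62.3, 58.4 and 55.1 CPM in EN1 against 203, 172, 336 and 225. Channel lists had medians of -0.04 (24 potassium and HCN channel genes) and 0.07 (20 sodium and calcium channel genes).

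Other lists had few members above the filter in all 4 libraries, namely 4 of 48 neuromodulator receptors, 1 of 27 neuropeptides, 9 of 35 collicular neuron markers and 1 of 24 immediate early genes. In the marker list 3 of 9 were lower in EN1 in every library and none was higher, beside 13.9% and 22.1% of all genes. Tac1, which encodes substance P, gave EN1 92.8 CPM at E19 and 25.8 at P21, against 51.7 and 14.2 in the others. Of the 12 immature neuron genes that passed, 3 were higher and 4 lower in every library, and of the 21 mature neuron genes 6 and 4, beside the same 22.1% and 13.9%. No member of either list was 2-fold apart in any library.

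Variation among EN1 nuclei was described by the variance over the mean of each gene, a measure that grows with the level, so that abundant genes lead it. At 5000 UMIs per nucleus the median gene had a variance about 1.1 times its mean, close to the 1 of counting error alone. Kcnip4, a subunit of A-type potassium channels, was among the 5 most variable genes of each library, with a ratio of 26.4, 25.8, 23.6 and 20.8. Tenm2, a teneurin of synaptic adhesion, was also among the 5 in each library, with 26.9, 21.9, 16.2 and 9.57. The other excitatory subtypes together, a mixture of 12, had 32.4, 27.4, 27.2 and 36.3 for Kcnip4 and 26.8, 28.7, 20.2 and 12.8 for Tenm2. Gpc5 had ratios of 26.6, 14, 10.2 and 13.5 within EN1. Adarb2, an inactive member of the RNA-editing deaminase family that is known from inhibitory neurons, ranked second at P8 with 16.5, a UMI in 50% of nuclei and 69 UMIs in the highest. Slc17a6 itself had a ratio of 1.04 to 1.26.

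Between adjacent stages the EN1 profile moved little until P8 and more after it. From E19 to P4, 9 genes were 2-fold higher at P4 (0.233% of 3860 tested) and 13 were 2-fold lower (0.337%). From P4 to P8, 8 were higher (0.215% of 3720) and 33 lower (0.887%), and with median-of-ratios scaling 10 were higher and 23 lower. From P8 to P21, 80 were higher (2.18% of 3675) and 91 lower (2.48%). Over the whole span from E19 to P21, 181 were higher at P21 (4.74% of 3817) and 263 lower (6.89%). The last step covered the longest time, and P8 and P21 had the fewest EN1 nuclei.

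Most of this was shared with the other excitatory subtypes, which came from the same 4 libraries and so share any feature of a library. Of the 444 genes 2-fold different within EN1 between E19 and P21, 441 had the same sign in the other subtypes and 367 were 2-fold different there too. Over all 3817 genes the log2 ratios of EN1 and of the others were less than 1 apart for 3780 genes (99.03%), with a median difference of 0.14.

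**Figure D4:**
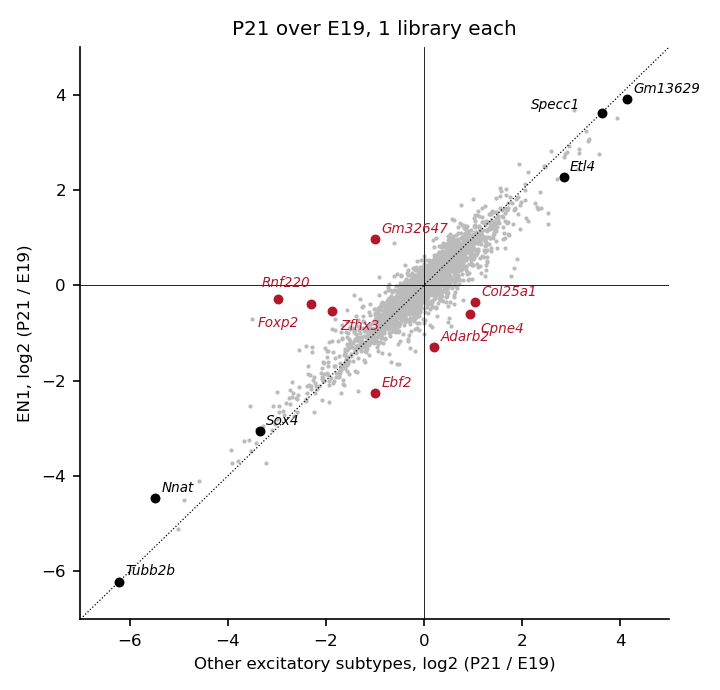
Each point is a gene with a mean of at least 50 CPM in EN1 at E19 and P21 (3817 genes), placed by its log2 ratio of P21 over E19 in the other excitatory subtypes (horizontal) and in EN1 (vertical); the dotted line marks equal ratios. Most genes lie near the line, 3780 of them less than 1 from it, and the 8 genes ranked for the largest difference are named in red.

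The genes lower at P21 were led by cytoskeletal genes of growing neurons. Tubb2b, a tubulin of growing axons, was at 606, 310, 107 and 3.23 CPM in EN1. Tubb5, a second beta-tubulin, was at 427, 244, 86.4 and 14.1 CPM, and since tubulin genes resemble one another, the split of UMIs between them is uncertain. Tmsb10 and Tmsb4x, thymosins that bind actin monomers, went from 293 to 12.3 and from 360 to 22.6 CPM. Nnat, neuronatin, went from 710 CPM at E19 to 27.6 at P21 in EN1 and from 875 to 14.8 in the others. Of 25 immature neuron and cytoskeleton genes tested, 21 were 2-fold lower at P21 and none was higher, beside 6.89% of all genes, and the list had a median log2 ratio of -2.09. In the other subtypes 21 were lower as well, with a median of -1.93, so the list did not set EN1 apart. Measures of RNA content differed between the libraries as well. The median percent of mitochondrial UMIs in EN1 nuclei was 0.461, 0.542, 0.203 and 0.119, and that of ribosomal UMIs 0.419, 0.292, 0.209 and 0.151. Eef1a1, a translation elongation factor used by all cells and named after its values were seen, had a log2 ratio of -3.07 in EN1 and -3.37 in the others, and Apoe, an apolipoprotein gene of glia named in the same way, -1.91 and -1.74. The part of these in the list was not tested.

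The genes with the largest ratio of P21 over E19 were led by Gm13629 and Specc1. Gm13629, an antisense gene with no assigned function that overlaps Scn9a on the opposite strand, was at 9.50, 18.8, 34.0 and 212 CPM. Specc1, a coiled-coil cytoskeletal protein, was at 27.9, 31.2, 54.5 and 399. Lncpint, a long non-coding RNA, was at 74.2, 103, 175 and 642 CPM, and Rasgrf1, an exchange factor of neuronal Ras signalling, at 59.6, 113, 190 and 537. The largest step of each was the one from P8 to P21, which also spans the most days. AC149090.1, whose sequence resembles that of Pisd and whose UMIs are therefore uncertain, went from 96.8 CPM at E19 to 477 at P4 and 739 at P21. Mature neuron genes stood higher at P21 in 9 of 25 tested, beside 4.74% of all genes, and none was 2-fold lower. Syt2, a fast calcium sensor of vesicle release, was at 16.6, 33.6, 59.8 and 135 CPM, and Snap25, a SNARE protein, at 218, 288, 372 and 676. The list's median log2 ratio was 0.74 in EN1 and 0.86 in the others, where 12 were 2-fold higher.

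Transcription factors were mostly lower at P21. Of 36 tested, 16 were 2-fold lower and 1 was higher, beside 6.89% and 4.74% of all genes, with a median of -0.79 in EN1 and of -0.71 in the others, where 13 were lower. Sox4 and Sox11, factors of newly formed neurons, went from 108 to 8.50 and from 170 to 29.6 CPM between E19 and P21. Tcf7l2, an effector of Wnt signalling, was at 723 and 761 CPM at E19 and P4 and at 273 and 219 at P8 and P21, and Ebf3, a helix-loop-helix factor, went from 557 to 116 CPM. Rora was the 1 factor past 2-fold in the other direction, from 1227 to 2535 CPM. Sox6 and Lef1 were highest at P8 in EN1 and in the other subtypes alike. Sox6 was at 278, 287, 660 and 334 CPM in EN1 and at 278, 181, 467 and 235 in the others. Lef1 was at 277, 289, 610 and 197 CPM in EN1, at 517, 547, 784 and 374 in the others and at 337, 343, 449 and 277 in inhibitory nuclei.

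The counts of channels and receptors were small and are read beside 4.74% of all genes higher and 6.89% lower at P21. Of 28 potassium and HCN channel genes 4 were 2-fold higher at P21 and 1 lower, and of 22 sodium and calcium channel genes 1 was higher and 4 lower, so that 1 of 28 lower and 1 of 22 higher are near those shares. Scn1a, a sodium channel of mature neurons, was at 227, 294, 350 and 526 CPM, whereas Scn9a was at 260, 273, 224 and 58.9 and the beta subunit gene Scn3b at 115, 84.8, 68.9 and 17.6. Among 25 glutamate receptor genes 2 were 2-fold higher, the AMPA subunit gene Gria3 (227 to 564 CPM) and the NMDA subunit gene Grin1 (204 to 457), and 2 were lower, Grik1 (864 to 330) and Grm3 (292 to 142). The list's median was 0.18 in EN1, and it was -0.03 when genes under the filter were kept. Glra1 and Glra2, subunits of the glycine receptor, exchanged levels, with Glra1 at 21.4 CPM at E19 and 103 at P21 and Glra2 at 129 and 48.1. Glutamate receptors were near the same shares in both directions. Of 49 axon guidance genes 10 were 2-fold lower and none higher, in EN1 and in the others alike, with Sema6d at 795, 706, 408 and 260 CPM in EN1. Among 56 synapse organisers 2 were higher, one of them Sparcl1 (34.2 to 109 CPM), and 6 lower, among them Mdga1 (106 to 23.2), and of 15 growth factor signalling genes 3 were lower, among them Ptn (255 to 75.7).

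A small set of genes took a different course in EN1 than in the other excitatory subtypes from E19 to P21. These were ranked on that difference, so they are described and not tested, and the changing mixture of the other subtypes enters their values. Foxp2, a forkhead transcription factor, was at 413, 362, 315 and 312 CPM in EN1. The others were at 576, 377, 106 and 113, so EN1 was below them at E19 and above them at P8 and P21. Zfhx3, a large homeodomain and zinc finger factor, was at 1391, 977, 926 and 959 CPM in EN1 and at 1500, 820, 332 and 404 in the others. Within EN1 the level at E19 was 1.32 times that at P21 for Foxp2 (1.23 to 1.43) and 1.45 times for Zfhx3 (1.39 to 1.51). The log2 ratio of P21 over E19 was -0.40 for Foxp2 in EN1, -2.03 in EN2 and -1.03 in EN3. For Zfhx3 it was -0.53 in EN1, -1.31 in EN2 and -0.22 in EN3, so EN3 resembled EN1 there. With subtypes weighted alike the ratio in the others was -1.80 for Foxp2 and -1.16 for Zfhx3.

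Gm32647, a long intergenic non-coding RNA on chromosome 7 from 94042691 to 94709171, was at 197, 283, 197 and 391 CPM in EN1 and at 255, 331, 126 and 125 in the others. EN1 was lower than the others in the first 2 libraries and higher in the last 2. EN2 and EN3 moved in the same direction as EN1, with log2 ratios of 0.21 and 0.51 against 0.97. Rnf220, a ubiquitin ligase, was at 122, 87.1, 31.0 and 99.1 CPM in EN1 and at 407, 1199, 34.7 and 47.6 in the others. The value of the others at P4 rested largely on EN7. EN7 also entered their values at E19, with 33 nuclei, and at P21, with 1. Without EN7 the log2 ratio of the others from E19 to P21 was -1.35 in place of -2.97, against -0.29 in EN1. With subtypes weighted alike it was -3.997.

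Other genes had a lower P21 over E19 ratio in EN1 than in the others joined, and for Cpne4, Tmem132c, Adarb2 and Col25a1 the signs were opposite. Cpne4, a calcium-dependent phospholipid-binding copine, was at 195, 159, 131 and 127 CPM in EN1 and at 166, 250, 242 and 322 in the others. Tmem132c, described above, went from 63.5 to 22 CPM in EN1 and from 120 to 177 in the others joined. Its level at P21 was above that at E19 in EN2, EN3, EN4, EN5 and EN6. It was below in EN8, EN9, EN10, EN12 and EN13. EN12, the highest subtype, went from 1620 to 1163 CPM, while its UMIs of Tmem132c went from 314 to 1425 and its nuclei from 22 to 41. The part of this mixture in the ratio of the others was not tested. Adarb2 was at 755, 395, 583 and 305 CPM in EN1, with no steady course, and at 433, 422, 584 and 503 in the others. Its log2 ratio was -1.29 in EN1, 1.03 in EN2 and -0.66 in EN3, and inhibitory nuclei had 1779 to 2466 CPM. Col25a1 had a log2 ratio of -0.35 in EN1 and of 1.05 in the others, which came down to 0.36 with subtypes weighted alike. With nuclei weighted alike the Col25a1 ratio was -0.13 in EN1 and 1.16 in the others. With thinned nuclei it was -0.018 and 1.21, so the sign in EN1 rested on a small value. Ebf2, a helix-loop-helix factor related to Ebf3, was at 431, 222, 133 and 85.9 CPM in EN1 and at 258, 165, 299 and 127 in the others. EN3 had an even lower ratio for Ebf2 (-2.97) than EN1 (-2.26), and the ratio in the others was -0.997, or -1.49 with subtypes weighted alike.

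**Figure D5:**
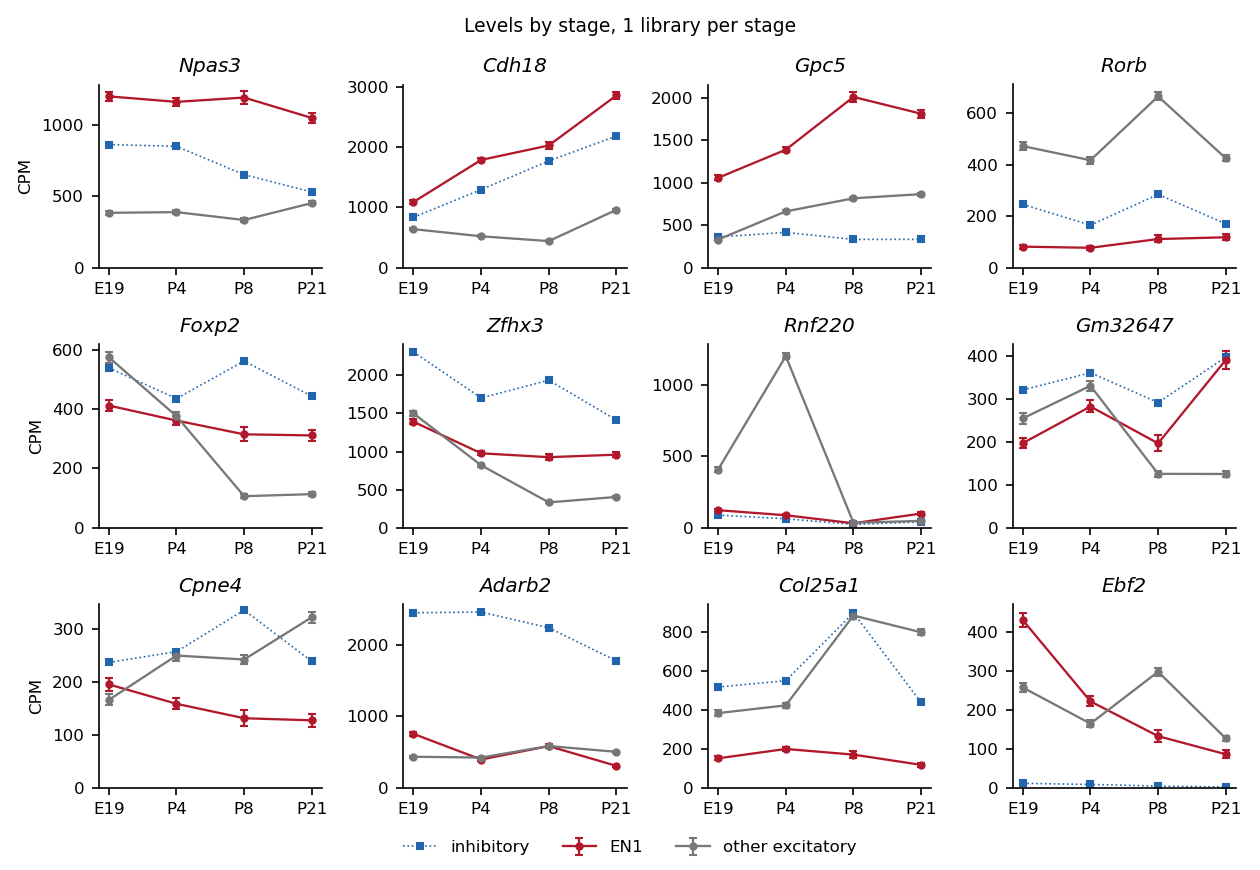
Levels in CPM by stage of 12 genes in EN1 (red), the other excitatory subtypes joined (grey) and inhibitory nuclei (blue squares), with 95% Poisson intervals for the first pair of groups and 1 library per stage. Npas3, Cdh18 and Gpc5 are higher and Rorb lower in EN1 in each library, while Foxp2, Zfhx3 and Gm32647 are higher in EN1 only at P8 and P21, apart from a small excess of Zfhx3 at P4.

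Nxph1, a secreted ligand of neurexins, was lowest at P8 in EN1, at 311, 224, 91.2 and 305 CPM from E19 to P21. The other subtypes were at 294, 450, 277 and 308, so EN1 was lower than they were at P4 and P8 and level with them at E19 and P21. Inhibitory nuclei had 1058 to 2239.7 CPM of it.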

How the data were processed

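Nuclei of pooled superior colliculus tissue were captured with 10x Genomics 3′ chemistry and processed with Cell Ranger 3.0.2 against a pre-mRNA version of mm10, per the labels' protocols, so that intronic reads entered the totals. The protocol text gives E10 in brackets beside embryonic day 19, and the stage of the first library is taken as E19 from the titles. The deposited matrix held UMI counts per gene and nucleus, not normalised, and the authors' deposited table of nuclei gave stage, class, subtype, cluster, reference labels and the percent of mitochondrial and ribosomal UMIs, with mitochondrial values up to 5%. How doublets and ambient RNA were treated, how libraries were integrated and clustered and which annotation release served is not given in the sources used here. UMI and gene totals recomputed from the matrix equalled the deposited ones in all 9724 nuclei.

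No further filter was applied to nuclei. UMIs were summed per library and subtype with Python 3.11.15 and NumPy 2.4.6, scaled to CPM and compared as log2 ratios with a pseudocount of 5 CPM among genes with a mean of at least 50 CPM in the groups compared. A gene was counted as 2-fold apart at an absolute log2 ratio of 1. Intervals were exact (Poisson for levels, Clopper-Pearson for shares, conditional binomial for folds). With 1 library per stage no test was made, and no p-value was computed. The fold counts and intervals were tested on simulated counts with known folds. These counts were drawn with Poisson error alone, so the check cannot speak to spread between nuclei or animals.

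Named genes were the 12 with the highest lowest and the 8 with the lowest highest log2 ratio over the 4 libraries, the leading genes of each step, list and library for variation, and the 8 with the largest difference in course, the step and course ranks at 100 CPM or more. Rankings left out mitochondrial, ribosomal protein, haemoglobin, Xist, Tsix and Y-linked genes, while other X-linked genes stayed in. Members and the 15 gene lists were chosen with earlier results of these data known. Bnc2 shares and the values of IN1 and EN2 to EN13 were chosen for naming once they had been seen. The same holds for the values of Eef1a1, Apoe, Ttr and Nxph1 at P8. Of the 31053 gene identifiers, 31011 were found in GENCODE M21. Alternatives comprised other pseudocounts, filters, scalings, weights, denominators and thinned nuclei. A result on 1 gene is not reported here.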

Additional observations from a re-analysis of the deposited data

Results flagged for a closer look

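Among the named genes, 4 had P21 over E19 log2 ratios of opposite sign in EN1 and in the other excitatory subtypes, each at least 0.5 in size and with a counting interval that excluded no difference. Cpne4 had -0.60 in EN1 and 0.94 in the others. For Gm32647 the values were 0.97 and -0.997. Nfia, a nuclear factor I gene, had 0.89 and -0.62, from levels of 37.0 and 72.7 CPM in EN1 and of 83.1 and 52.4 CPM in the others. Tmem132c had -1.34 and 0.54. Among the others, EN8, EN9, EN10, EN12 and EN13 had less Tmem132c at P21 than at E19, as EN1 did, and EN2 to EN6 had more. The difference between EN1 and the others was not tested, since each stage was 1 library. EN2 and EN3 had the sign of EN1 for Gm32647 and for Nfia and the opposite sign for Cpne4 and Tmem132c.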

How the results depend on the processing

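As a percent of all neurons in place of excitatory neurons, EN1 made up 23.0%, 21.6%, 6.70% and 9.70% in the libraries from E19 to P21, and as a percent of all nuclei 19.9%, 17.6%, 5.23% and 6.14%, so the 2 later libraries were lower with each denominator. Among excitatory nuclei with an Slc17a6 UMI the shares lay inside the intervals of the report. Without the filter on low values, which lets more genes in, 73, 107, 175 and 153 genes were 2-fold apart from the other excitatory subtypes, 15 of them in all 4 libraries, and 74, 115, 711 and 1656 genes were 2-fold apart within EN1 for the 3 adjacent steps and for E19 to P21. The report has 30, 35, 60 and 54, then 7, and then 22, 41, 171 and 444. With every subtype weighted alike there were 52 genes at E19 and 18 in all 4 libraries. A pseudocount of 20 CPM gave 23 genes at P4, and 12, 24 and 112 for the adjacent steps. A minimum mean of 100 CPM, which leaves fewer genes, gave 33 genes at P21, and 13, 24, 82 and 227 within EN1. Beyond this, the cause of these differences was not tested.

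The 7 genes 2-fold apart in all 4 libraries were also past 2-fold with thinned nuclei, with nuclei weighted alike, with median-of-ratios scaling (8 genes in all), without EN7 (9 in all) and without the deepest excitatory nucleus, of 244143 UMIs at P21. With a pseudocount of 20 CPM 6 of them were. With the minimum of 100 CPM 5 were, and Mgll and Bcl11b were not compared, since they did not reach that mean in every library. EN3, EN2 and EN11 led the likeness to EN1 and EN6 came last in all 5 settings tried. Without the filter the median P21 over E19 ratio of the glutamate receptor list was -0.027 and that of the neuromodulator receptor list -0.044, against 0.18 and 0.43 with it. Of the other recomputed values, on single genes, lists and likeness, 1545 stayed within the tolerance set for their kind (the counting interval of a ratio within EN1, the SD over libraries of a mean ratio or correlation, or a fixed log2 difference for list medians) and 169 did not. The omission of the deepest nucleus, and likeness and gene counts at equal UMI totals, were chosen after seeing the data.

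No paired analysis was possible because each stage had 1 library, and leaving out a replicate was not an option. Stage, library and the animals pooled for it cannot be told apart. The EN1 nuclei of P8 and P21 summed to 2292885 and 3410221 UMIs, against 5054175 at E19 and 5473583 at P4, so low genes were measured less precisely at the later stages.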
